A study of Mus musculus with 8 samples.

Results

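The ferlin genes examined here are *Dysf*, *Myof*, *Otof*, *Fer1l5* and *Fer1l6*, and their members are the CpGs from 1500 bases upstream of the gene start to the gene end with 5 or more reads in all 8 mice. This gave 301 of the 897285 CpGs tested genome-wide, of which 140 lay in *Dysf*, 50 in *Otof*, 39 in *Fer1l6*, 37 in *Fer1l5* and 35 in *Myof*. The methylation was measured by RRBS, a bisulfite sequencing method that reads the ends of fragments cut by *Msp*I at CCGG, in hepatocytes isolated by perfusion from the liver of female C57Bl6/J mice. The mid-aged group held 4 mice of 40 weeks and the young group 4 mice of 10 weeks, with 1 library per mouse. No genotype beyond this strain is labelled, and by the methods of the study all mice were fed a control diet. The family was chosen by the methylation values of *Dysf* intron 32, whose difference with age was already known from these same libraries, so the differences of *Dysf* are described without p-values. Its calls under the genome-wide rule are counted as a description of the choice and support nothing. The other 4 genes were taken by their family, and their differences carry adjusted p-values over all features of the genome.

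Ferlins are large membrane proteins that carry several C2 domains, modules that bind phospholipids, many of them in a calcium-dependent way, and that act in the fusion of vesicles with the plasma membrane. Dysferlin, the product of *Dysf*, takes part in the resealing of the damaged muscle cell membrane, and its loss causes muscular dystrophies in humans. Myoferlin (*Myof*) is known from the fusion of myoblasts and from endothelial cells, and otoferlin (*Otof*) from the release of transmitter by the inner hair cells of the ear, where its loss causes deafness. *Fer1l5* has been linked to myoblast fusion, and *Fer1l6* is the least characterized of these genes. In mammalian genomes CpG-rich stretches at gene starts are often free of methylation, while CpGs inside genes are mostly methylated.

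Summed over CpGs, the reads numbered 84639955 to 118395064 in a mid-aged and 46321447 to 72710972 in a young library, so depth and age cannot be told apart by design. At the ferlin CpGs the median coverage was 47 reads per mid-aged and 39 per young mouse. Mean methylation over all tested CpGs was 44.2% ± 0.0245 in the mid-aged and 43.9% ± 0.195 in the young group (SD, n = 4 each), a difference of 0.320 percentage points (two-sided exact permutation test, p = 0.0286, the smallest p that 4 against 4 mice allow). The hepatocyte label was read against promoter methylation, which is an indirect check. Only 2 of 16 hepatocyte markers, *Fgb* and *Apob*, had a promoter with at least 3 tested CpGs, and both lay below 20% methylation over the 8 mice, with a joint mean of 18.2 to 25.5% in mid-aged and 11 to 22.4% in young mice. Low levels were also found in other lists, and the 1 endothelial promoter tested, *Kdr*, had 2.65% in mid-aged and 2.66% in young mice. Promoters below 20% numbered 3 of 6 for stellate cell, 2 of 4 for cholangiocyte and 2 of 5 for skeletal muscle markers. The check therefore does not tell hepatocytes from these cells. No promoter of the hepatocyte, endothelial, stellate cell, cholangiocyte or skeletal muscle markers passed the limma test, where 0.0565% of all promoters did. Each value is a share of reads from many cells, so a change in the makeup of the cells and a change within cells cannot be told apart.

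In *Dysf* (ENSMUSG00000033788.15, chromosome 6, 84008590 to 84211060 on mm10, forward strand), hepatocytes of mid-aged mice were less methylated than those of young mice in a short stretch of intron 32 of the 55-exon transcript Dysf-201. The 10 tested CpGs from 84134937 to 84135136 averaged 30.1% ± 3.58 in the mid-aged and 63.0% ± 10.3 in the young group (SD, n = 4 each), a difference of -32.8 percentage points. All 10 CpGs had a lower mean in mid-aged mice, and 6 of them met the call rule. A CpG is called here when a quasi-binomial model with a dispersion moderated by limma gives an adjusted p under 0.05, the means differ by 5 percentage points or more, and neither group has a variance of 0.05 or more. Over the genome 0.102% of CpGs were called lower in mid-aged mice, 0.0615% higher and 0.163% in either direction. Since *Dysf* was chosen for this stretch, nothing is read from its count beside that background. The forward strand of the stretch (GRCm38, chr6:84134935-84135139) is printed because it carries all called CpGs of the 5 genes, with the tested CpGs in capitals.
Dysf intron 32: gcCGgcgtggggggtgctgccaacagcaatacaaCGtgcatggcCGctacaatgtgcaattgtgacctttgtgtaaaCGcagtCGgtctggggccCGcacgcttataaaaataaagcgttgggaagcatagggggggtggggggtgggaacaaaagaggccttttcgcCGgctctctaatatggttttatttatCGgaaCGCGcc
Its 205 bases hold 14 CpGs, of which 10 were tested, and 2 CCGG sites, which open the fragments of 166 and 226 bases that were read here. None of the 10 tested CpGs lies in sequence masked as a repeat.

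The size of the difference in intron 32 changed along these bases. The CpGs of the upstream fragment, from 84134937 to 84135030, had a mean of 30.2, 25.0, 37.9 and 33.7% in mid-aged mice 1 to 4 and of 58.6, 65.1, 41.8 and 44.5% in young mice 1 to 4. The 4 CpGs of the downstream fragment, from 84135103 on, had 17.5, 37.7, 26.6 and 29.1% in the mid-aged and 87.1, 85.1, 65.3 and 77.0% in the young mice. The groups did not overlap in either fragment, and the difference was -20.8 percentage points in the upstream and -50.9 in the downstream one. CpGs of a fragment share reads and are not independent measurements, and the spread between mice, not the number of CpGs, sets the error.

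The largest difference fell on the CpG at 84135134, in the GAACGCG letters near the right end of the printed stretch. It was methylated at 7.69, 34.8, 23.8 and 26.9% in mid-aged mice 1 to 4 and at 100, 100, 66.7 and 73.6% in young mice 1 to 4. The lowest young mouse therefore lay above the highest mid-aged mouse, and the group means were 23.3% ± 11.4 and 85.1% ± 17.5 (SD, n = 4 each). Mid-aged mouse 1 had 13 reads here (Wilson 95% interval 1.37 to 33.3%), and the other mice had 21 to 66. Such an interval covers the counting of reads and not the spread between mice.

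The neighbouring CpG at 84135129 had 7.69, 35.8, 25.4 and 29.4% in the mid-aged and 100, 75.7, 72.2 and 87.0% in the young mice. The CpG at 84135136, which shares the CGCG letters with 84135134, had 33.3, 61.5, 46.7 and 37.3% in the mid-aged and 100, 94.6, 75.9 and 94.3% in the young mice. At 84135103, within the CCGG site between the fragments, the values were 21.4, 18.6, 10.4 and 23.0% against 48.6, 70, 46.5 and 52.9%. The groups were apart at each of these CpGs.

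In the upstream fragment the called CpGs lay 6 bases apart. The CpG at 84135012 had 28.3, 25, 40 and 33.6% in mid-aged mice and 68.1, 59.4, 49.2 and 62.5% in young mice. That at 84135018 had 32.6, 22.7, 37.0 and 31.5% against 66.2, 66.2, 46.0 and 55.6%. Young mouse 3 was the lowest of its group at both, and still above every mid-aged mouse. The first CpG of the run, at 84134937, also had groups apart (39.1% ± 4.88 against 69.1% ± 17.3, SD, n = 4 each) without meeting the call rule. The remaining CpGs, at 84134969, 84134979 and 84135030, differed by -6.72, -19.6 and -12.7 percentage points with overlapping mice.

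**Figure D1:**
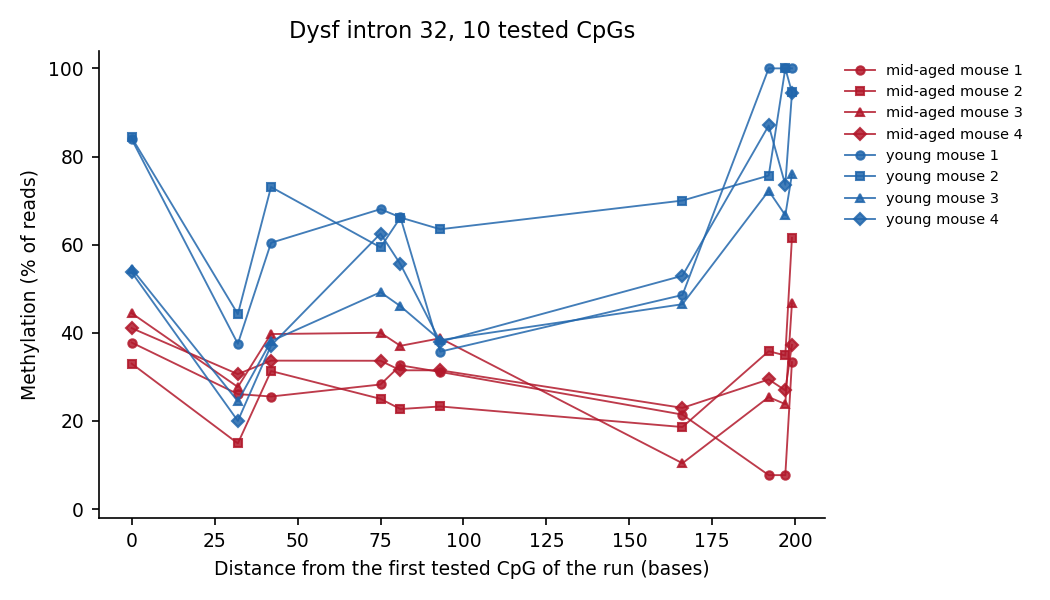
Methylation in percent of reads (y axis) at the 10 tested CpGs of Dysf intron 32 against the distance in bases from the first of them (x axis), with 1 line per mouse, red for mid-aged and blue for young. The mean over these CpGs was 30.1% in mid-aged mice and 63.0% in young mice, and the lines of the groups are farthest apart at the right end.

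The count of called CpGs in *Dysf* differed with the mouse left out and with the error model. Without mid-aged mouse 1 it was 3 and without mid-aged mouse 2, 3 or 4 it was 2, while without a young mouse it was 6 or 7. Limma on M values or a moderation over all dispersions gave 0 calls in the 5 genes, and 23 and 0 calls over the genome. In these settings 29 and 32 of the 301 CpGs had an unadjusted p under 0.05, a count that includes the chosen stretch. Outside *Dysf* it was 13 of 161 CpGs in either setting. The genome-wide share at these settings is not given here. The differences themselves stayed of like size without any 1 mouse, for example from -67.9 to -56.5 percentage points at 84135134 and from -31.6 to -25.3 at 84135012. These CpGs were chosen for their difference in the same mice, so such ranges are a description and no support for it. With the reads of each CpG thinned to the shallowest mouse 5 of the 6 calls were left.

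Outside intron 32 the other 130 CpGs of *Dysf* averaged 57.3% ± 0.513 in the mid-aged and 55.9% ± 0.688 in the young group (SD, n = 4 each), and 0 of them were called. The mean of all 140 CpGs was 55.3, 55.4, 54.9 and 55.7% in mid-aged mice 1 to 4 and 56.6, 57.9, 55.7 and 55.3% in young mice 1 to 4. The groups overlapped, and the difference over the whole gene was -1.06 percentage points (SE 0.641). Without the 10 CpGs of the intron 32 run it turned to 1.38 percentage points. Of the 140 CpGs, 81 had a higher and 59 a lower mean in mid-aged mice.

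At the most upstream annotated start of *Dysf* the mean methylation was low at both ages. The 14 tested CpGs from 1500 bases upstream to 500 bases downstream of the start had means of 7.2, 6.88, 6.28 and 6.02% in mid-aged and of 6.30, 4.17, 5.03 and 4.57% in young mice. These ranges overlapped, with a difference of 1.58 percentage points (SE 0.597). The highest of these CpGs, at 84009039, had 42.9, 8.51, 5.77 and 33.3% in mid-aged and 16.1, 0, 15.6 and 8.11% in young mice. Mid-aged mouse 1 had 14 reads there. The stretch before the start (GRCm38, chr6:84008501-84008586, forward strand) is shown as an example of a ferlin start with low methylation, with the tested CpGs in capitals.
Dysf upstream: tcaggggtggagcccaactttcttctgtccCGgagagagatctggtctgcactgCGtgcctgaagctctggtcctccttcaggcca
The CpG at the annotated start itself, 84008590, had 0% in 7 mice and 10.7% in young mouse 2, with 8 to 35 reads, and an interval as wide as 32.4 percentage points in the shallowest mouse. Further from the start, still before the first exon of Dysf-201, the level was 51.0% in mid-aged mice and 56.4% in young mice at 84009937, and 90.2% and 86.9% at 84011995. Dysf-201 itself begins downstream of these CpGs. The 9 CpGs of its intron 1, 956 to 1185 bases past the nearest start of a coding transcript, averaged 61.3% in mid-aged and 61.9% in young mice. The 7 tested CpGs from 84008913 to 84012028 also lie in *Gm33024*, an antisense transcript of the annotation. RRBS does not tell to which of the overlapping genes a methylated CpG belongs.

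Intron 22 of *Dysf* held a CpG-dense block with low methylation. Its 30 tested CpGs, from 84105715 to 84106288, had a median of 16.5 CpGs within 100 bases on either side, against 5 for the other CpGs of *Dysf*, and 26 of the 30 lay below 20% methylation. The whole block lies within *Gm15475*, another antisense transcript. Its mean was 15.7, 14.3, 14.8 and 16.7% in mid-aged mice 1 to 4 and 9.06, 15, 11.1 and 9.69% in young mice 1 to 4. Young mouse 2 lay within the range of the mid-aged mice, and the other young mice lay below it. The group means were 15.4% ± 1.03 and 11.2% ± 2.65 (SD, n = 4 each), a difference of 4.17 percentage points.

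Of the 30 CpGs in the block, 27 had a higher mean in mid-aged mice and 0 met the call rule. Every mid-aged mouse lay above every young mouse at 7 of them, where 2.33% of all tested CpGs did so. All 7 CpGs of *Dysf* with such higher values lay in this block. These 7 fall in the fragments that start at 84105715 and 84105904, and CpGs of a fragment share reads. Their number beside that background is thus no count of independent sites, and the mean of the block overlapped between the ages. The part around 84105970 (GRCm38, chr6:84105902-84105973, forward strand), is shown because the differences of the block were largest there.
Dysf intron 22: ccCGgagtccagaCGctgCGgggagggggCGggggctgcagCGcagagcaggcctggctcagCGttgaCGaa
At 84105970 the values were 13.8, 9.50, 17.9 and 15.1% in the mid-aged and 6.06, 5.13, 1.14 and 1.23% in the young mice, over 33 to 218 reads. At 84105943 they were 15.7, 9.55, 14.5 and 11.5% against 3.33, 3.31, 4.65 and 7.50%. The groups were apart at both CpGs by a few percentage points. The direction is opposite to that in intron 32.

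**Figure D2:**
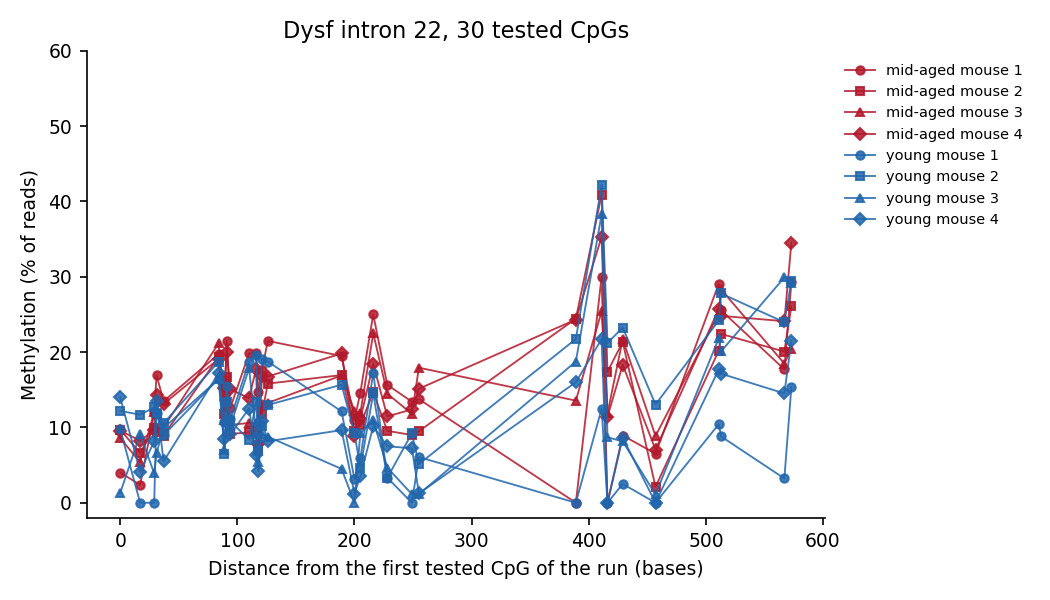
Methylation in percent of reads (y axis, to 60) at the 30 tested CpGs of Dysf intron 22 against the distance in bases from the first of them (x axis), with 1 line per mouse, red for mid-aged and blue for young. The group means over the block were 15.4% and 11.2%, and red and blue points overlap along most of the block, with the red points mostly above the blue ones between 189 and 255 bases.

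Elsewhere in *Dysf* single CpGs differed widely without a call. In coding exon 10, at 84068101, methylation was 88.9, 46.7, 63.6 and 54.1% in mid-aged mice and 57.3, 20.8, 48.1 and 35.7% in young mice, where mid-aged mouse 1 had 9 reads. In intron 12, at 84072486, it was 44.4, 50, 39.0 and 31.6% against 60, 61.5, 56.2 and 51.4%. The exon 10 values overlapped between the ages, and those of intron 12 did not. In intron 12 mid-aged mouse 1 had 9 reads too, and the highest mid-aged mouse (50%) lay just below the lowest young mouse (51.4%). Toward the 3′ end, the CpGs of intron 40 and intron 54 had group means of 88.4% or more.

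*Otof* (ENSMUSG00000062372.13, chromosome 5, 30367062 to 30461932, reverse strand, 47 exons in Otof-201) had 0 called CpGs among its 50, and 6 of the 50 had an unadjusted p under 0.05 in the quasi-binomial model. Its mean was 70.3, 72.4, 70.6 and 69.9% in mid-aged mice and 74.1, 74.5, 71.0 and 69.7% in young mice. The groups overlapped, with a difference of -1.49 percentage points (SE 1.19, limma, adjusted p = 0.660). Its CpGs fell into a partly methylated start, an almost unmethylated piece of intron 11, a variable exon 14 and a highly methylated remainder.

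At the start of *Otof* the 9 tested CpGs had means of 50.9, 51.5, 46.3 and 38.8% in mid-aged and of 43.6, 54.9, 35.3 and 40.4% in young mice, a difference of 3.34 percentage points (SE 4.50, limma, adjusted p = 0.866). The spread between mice of 1 age exceeded this difference. The CpGs nearest to the start lay 40 bases on either side of it. The upstream one, at 30461972, had 32.5% ± 8.51 against 30.9% ± 8.70, and the one in the untranslated part of exon 1, at 30461892, 10.8% ± 4.90 against 17.1% ± 12.4 (SD, n = 4 each, quasi-binomial model with limma, adjusted p = 0.802 and 0.743). The upstream stretch (GRCm38, chr5:30461970-30462023, forward strand, gene on the reverse strand) is printed beside that of *Dysf* to show a start of the family with intermediate methylation.
Otof upstream: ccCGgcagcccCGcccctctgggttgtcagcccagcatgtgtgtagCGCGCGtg
All 5 CpGs of this stretch were tested, and their group means lay between 30.9 and 63.1%. The 3 CpGs of the CGCGCG letters lie in sequence masked as a repeat. Outside the promoters of *Dysf* and *Otof* no ferlin promoter had a tested CpG.

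In coding exon 14 of *Otof* 3 neighbouring CpGs were lower in mid-aged mice by 20.5 to 35.8 percentage points, without passing the test. At 30388314, the CpG with the largest difference of the gene, methylation was 10, 43.3, 18.2 and 4.55% in mid-aged mice 1 to 4 and 83.3, 83.3, 33.3 and 19.4% in young mice 1 to 4. Young mice 1 and 2 stood high, young mice 3 and 4 lay within the range of the mid-aged mice, and the coverage was 10 to 31 reads (adjusted p = 0.644, quasi-binomial model with limma). The sequence (GRCm38, chr5:30388312-30388388, forward strand) shows the 4 tested CpGs of the exon in order.
Otof exon 14: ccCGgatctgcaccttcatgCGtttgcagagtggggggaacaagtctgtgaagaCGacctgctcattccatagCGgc
At the third of these CpGs, 30388366, the values were 20, 20, 9.09 and 21.7% against 58.3, 30.8, 29.2 and 34.4%, and the groups did not overlap (adjusted p = 0.509, quasi-binomial model with limma). The fourth CpG, at 30388385, had 67.8% ± 5.77 and 68.3% ± 13.8 (SD, n = 4 each). The mean of the 4 CpGs was 25.0, 40.6, 25.1 and 29.4% in mid-aged mice and 64.6, 63.1, 44.0 and 33.4% in young mice, a difference of -21.3 percentage points (adjusted p = 0.456 over all runs, limma).

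Intron 11 of *Otof* was almost unmethylated at 4 CpGs in the middle of the gene, 70304 to 70408 bases from the start (GRCm38, chr5:30391522-30391631, forward strand), and is shown because its level stands apart from its neighbours.
Otof intron 11: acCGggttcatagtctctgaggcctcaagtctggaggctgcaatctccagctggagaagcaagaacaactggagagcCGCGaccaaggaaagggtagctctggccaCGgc
The mean of these CpGs was 1.82, 3.24, 5.20 and 3.78% in mid-aged mice and 5, 3.26, 13.1 and 8.20% in young mice, with a difference of -3.88 percentage points (adjusted p = 0.625 over all runs, limma). Exon 13, which lies 73213 to 73278 bases from the start, had 82.6% ± 2.09 and 86.3% ± 3.99 over 6 CpGs (SD, n = 4 each). The intron 11 piece had 3 or 4 CpGs within 100 bases on either side and the highly methylated exon 13 had 9 to 12.

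*Fer1l5* (ENSMUSG00000037432.15, chromosome 1, 36372291 to 36422110, forward strand, 53 exons) was the most methylated of the 5 genes by its group means. Its mean was 89.7, 91.4, 92.4 and 90.2% in mid-aged mice and 86.0, 88.9, 88.8 and 89.8% in young mice. Young mouse 4 lay just above the lowest mid-aged mouse, and the difference of 2.55 percentage points (SE 1.0) did not pass over all genes (limma, adjusted p = 0.329). Of its 37 CpGs 24 had a higher mean in mid-aged mice, 0 were called, and 2 had an unadjusted p under 0.05 in the quasi-binomial model. The CpG nearest to the start, 2344 bases into the gene at 36374635, had 98.0% ± 2.12 against 97.8% ± 2.67 (SD, n = 4 each). The 5 CpGs that also lie in *Lman2l*, which runs on the opposite strand at the 3′ end, were methylated at 95.8% or more in both groups.

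The largest difference of *Fer1l5* lay in intron 3 at 36375029, in the last CpG of the printed stretch (GRCm38, chr1:36374968-36375032, forward strand).
Fer1l5 intron 3: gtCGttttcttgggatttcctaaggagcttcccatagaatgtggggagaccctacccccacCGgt
Methylation there was 100, 97.1, 85.7 and 80% in mid-aged mice and 7.14, 87.0, 58.3 and 86.8% in young mice. The value of young mouse 1 rested on 14 reads (Wilson 95% interval 1.27 to 31.5%), and without that mouse the difference of 30.9 became 13.3 percentage points. The groups overlapped (adjusted p = 0.597, quasi-binomial model with limma). In coding exon 20 the 3 CpGs from 36401387 to 36401467 had 85.2, 86.1, 90.2 and 92.4% against 69.7, 61.5, 87.8 and 90.6%, where young mice 1 and 2 were low (adjusted p = 0.681 over all runs, limma).

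*Fer1l6* (ENSMUSG00000037106.8, chromosome 15, 58510048 to 58665092, forward strand, 41 exons) had means of 80.2, 78.7, 77.8 and 79.0% in mid-aged and of 77.2, 77.6, 79.5 and 77.9% in young mice. The difference of 0.874 percentage points (SE 0.768, limma, adjusted p = 0.691) turned to -3.02 when methylated reads were summed over the gene instead of averaging CpGs, and to -0.0527 on the scale of M values. None of its 39 CpGs was called, and 3 had an unadjusted p under 0.05 in the quasi-binomial model. The CpG at 58576394 in intron 15 had the largest difference (GRCm38, chr15:58576364-58576425, forward strand), and the one at 58578500 in intron 16 the lowest level (chr15:58578470-58578531). Both lie in a CCGG site with few other CpGs around it, and are set side by side for that reason.
Fer1l6 intron 15: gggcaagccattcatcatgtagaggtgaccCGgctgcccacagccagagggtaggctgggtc
Fer1l6 intron 16: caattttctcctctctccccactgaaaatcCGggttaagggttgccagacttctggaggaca
In intron 15 methylation was 85.7, 81.0, 92 and 94.1% in mid-aged mice and 46.2, 68, 69.2 and 64% in young mice. The 4 mid-aged mice lay above the 4 young mice, with a difference of 26.3 percentage points over 13 to 26 reads (adjusted p = 0.267, quasi-binomial model with limma). In intron 16 it was 4.70, 17.3, 8.76 and 19.1% against 12.1, 14.3, 7.69 and 15.6%, low in every mouse and with overlapping groups. The tested CpG nearest to the start, 38181 bases into the gene at 58548229 in intron 2, was methylated at 96.8% or more in all 8 mice.

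*Myof* (ENSMUSG00000048612.16, chromosome 19, 37899036 to 38043577, reverse strand, 53 exons in Myof-201) was highly methylated along the covered introns and exons, and 0 of its 35 tested CpGs lay below 20%. Its mean was 82.5, 86.6, 85.2 and 86.0% in mid-aged mice and 89.5, 85.7, 89.4 and 85.2% in young mice. The ranges overlapped, and the difference was -2.39 percentage points (SE 1.33, limma, adjusted p = 0.512). Of its CpGs 24 had a lower mean in mid-aged mice, 0 were called, and 2 had an unadjusted p under 0.05 in the quasi-binomial model.

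The largest difference of *Myof* lay in coding exon 26 at 37945672, with 76.8, 69.4, 76 and 87.5% in mid-aged and 100, 88.2, 90 and 86.8% in young mice (-13.8 percentage points, adjusted p = 0.531, quasi-binomial model with limma). Mid-aged mouse 4 lay within the range of the young mice. The 5 CpGs of this exon and the adjoining intron had 82.8% ± 4.05 against 89.9% ± 2.37 (SD, n = 4 each), and their means did not overlap (-7.11 percentage points, adjusted p = 0.435 over all runs, limma). In intron 42, at 37918755, the values were 73.8, 72.4, 80 and 79.9% against 94.0, 89.8, 87.9 and 82.9%, also without overlap (adjusted p = 0.386, quasi-binomial model with limma). This CpG is the first one in capitals of the stretch chr19:37918753-37918794 (GRCm38, forward strand), shown because it is the only CpG of *Myof* at which the groups were apart.
Myof intron 42: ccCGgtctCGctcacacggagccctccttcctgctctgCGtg
The tested CpG nearest to the start, 45763 bases into the gene at 37997814 in intron 4, had 96.1% ± 1.64 against 94.4% ± 4.35 (SD, n = 4 each, adjusted p = 0.774, quasi-binomial model with limma).

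**Figure D3:**
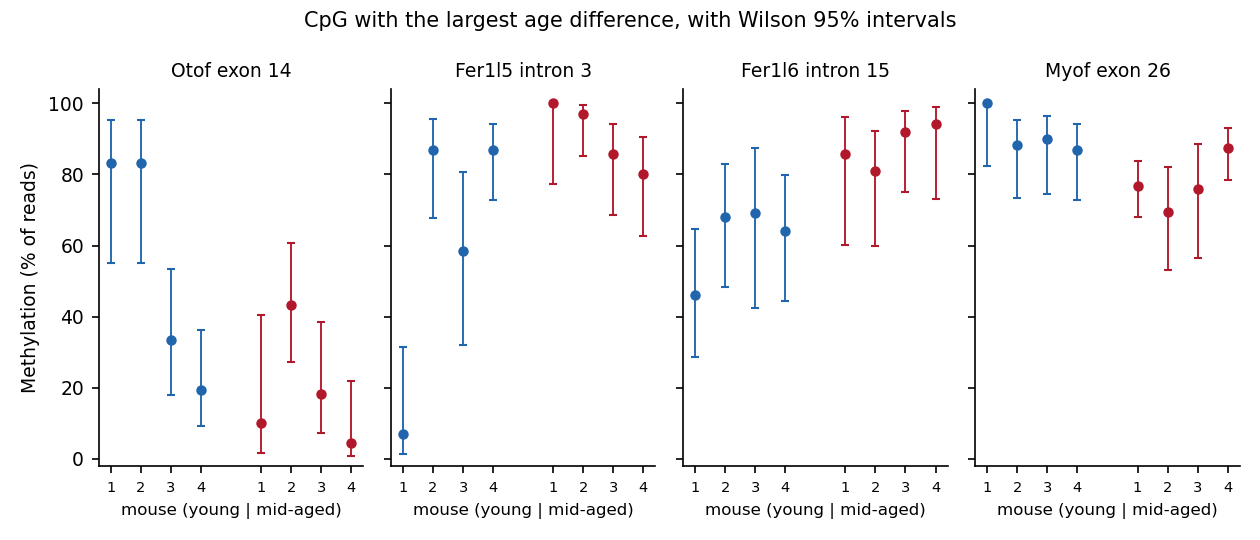
Methylation in percent of reads (y axis) of the CpG with the largest age difference in Otof, Fer1l5, Fer1l6 and Myof, with 1 point per mouse (x axis, young mice 1 to 4 in blue, then mid-aged mice 1 to 4 in red) and bars for the Wilson 95% interval. Only in Fer1l6 intron 15 do the points of the ages not overlap, and the interval of young mouse 1 in Fer1l5 intron 3 reaches from 1.27 to 31.5%.

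Across the 4 ferlin genes other than *Dysf*, 0 of 161 CpGs were called in the quasi-binomial model, and 13 (8.07%) had an unadjusted p under 0.05, where 9.09% of all tested CpGs did. At the genome-wide share of 0.163% a set of this size would hold fewer than 1 call, so the count of 0 does not set these genes apart. Limma on M values also gave 0 calls, but it called only 23 of the 897285 CpGs over the genome, so this adds little. The groups were apart with lower values in mid-aged mice at 3 of the 161 CpGs (1.86%, background 1.24%) and with higher values at 3 (1.86%, background 2.33%). Among the runs of neighbouring CpGs in these 4 genes 0 passed in limma, where 0.0839% of all runs did, and 1 run of *Otof* and 1 of *Myof* had an unadjusted p under 0.05. The median difference was -0.198 percentage points, beside 0.212 over all tested CpGs. At *Otof* 2 of the lower and 2 of the higher CpGs were found.

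**Figure D4:**
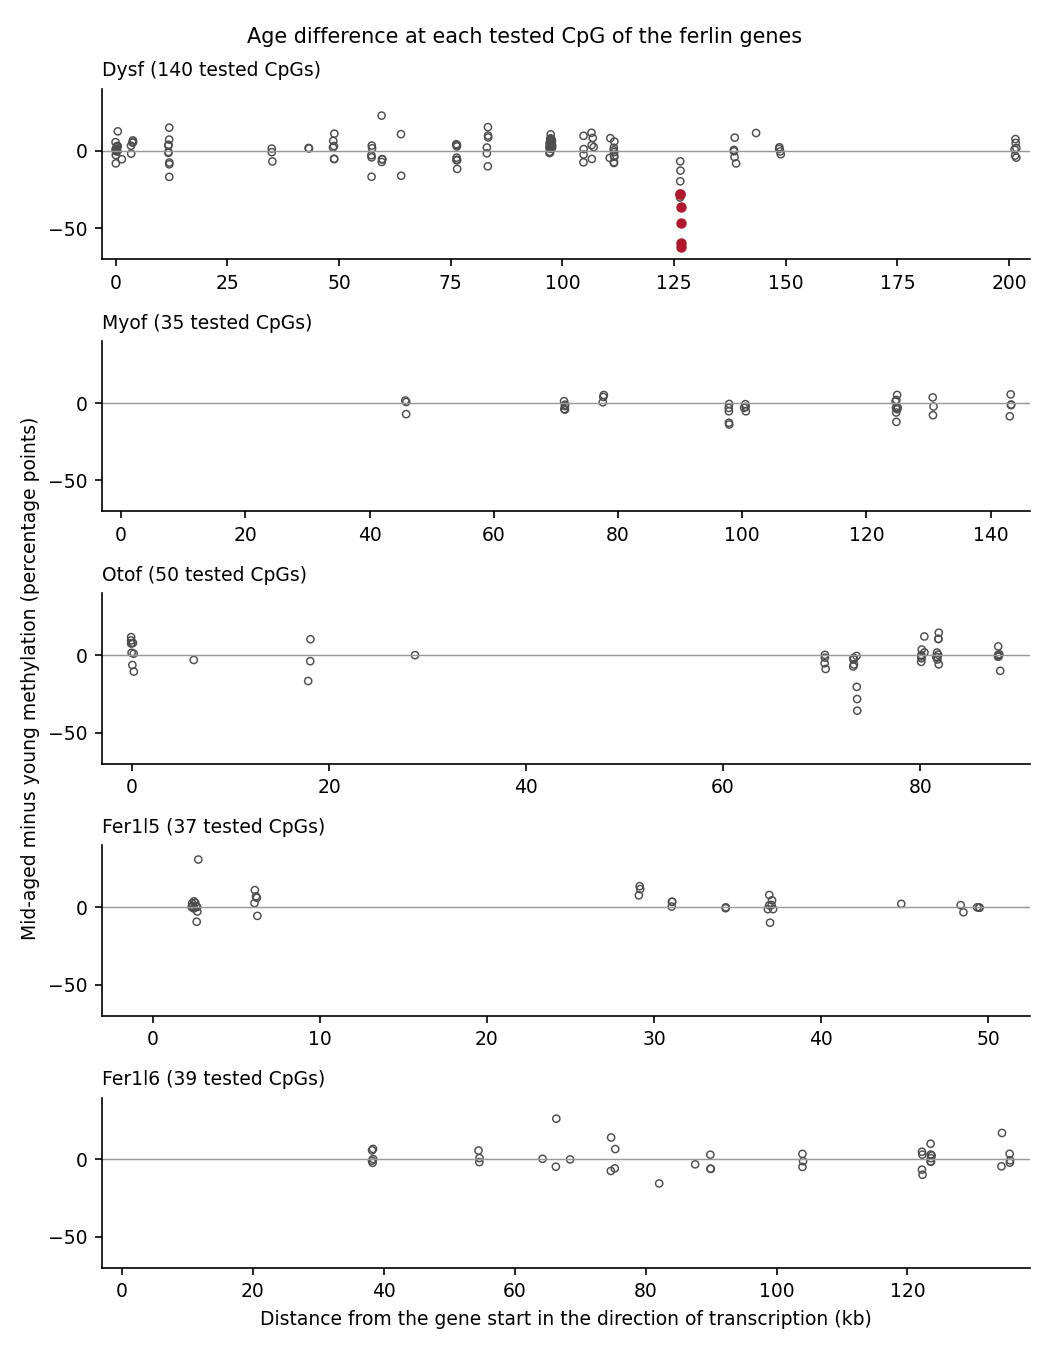
Difference in methylation, mid-aged minus young in percentage points (y axis), at each tested CpG of the 5 genes against the distance from the gene start in kb (x axis), with filled red points for the 6 called CpGs. The called points, all lower in mid-aged mice, lie in Dysf at about 126 kb, and the other genes hold none.

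Set side by side, the 5 genes were ordered by their mid-aged mean as *Fer1l5* (90.9%), *Myof* (85.1%), *Fer1l6* (78.9%), *Otof* (70.8%) and *Dysf* (55.3%), and the young mice gave the same order. In the young mice *Fer1l5* and *Myof* overlapped (88.4% ± 1.63 and 87.5% ± 2.29, SD, n = 4 each), and the other neighbours in this order did not. These levels depend on which CpGs lie near an *Msp*I site. Between 2.20 and 6.31% of the CpGs of each gene were tested. The low mean of *Dysf* goes with its 40 CpGs below 20%, of which 26 lie in the intron 22 block and the other 14 at its start. Of all 301 CpGs 30.2% had a level between 20 and 80%, beside 13.7% of the tested CpGs of the genome. Of the gene means of *Otof*, *Fer1l5*, *Fer1l6* and *Myof* 0 passed in limma, where 0.966% of all genes did, and that of *Fer1l5* had an unadjusted p under 0.05. The promoter mean of *Otof* did not pass either, where 0.0565% of all promoters did.

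**Figure D5:**
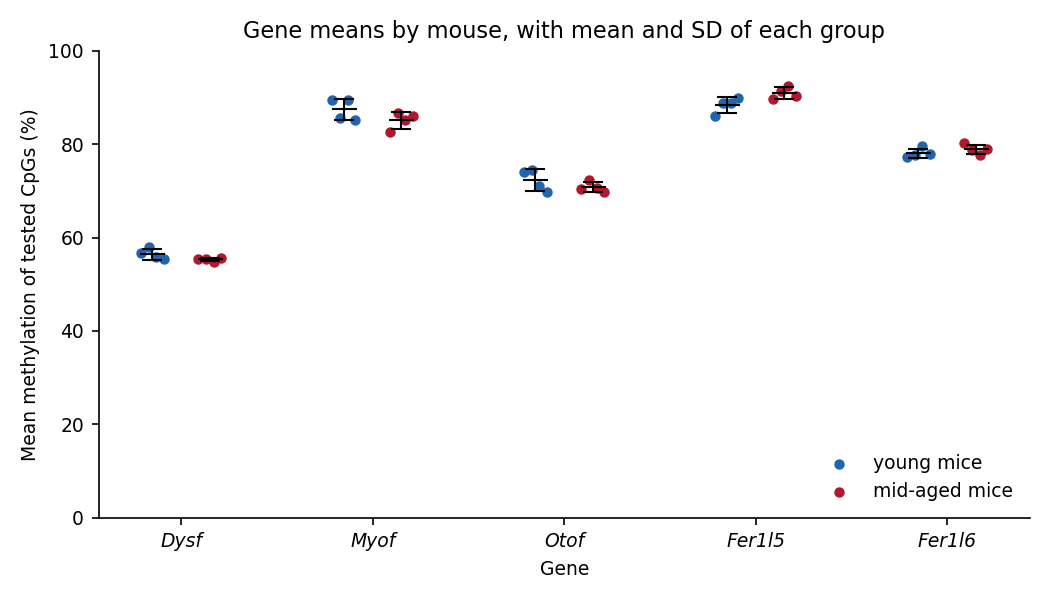
Mean methylation of the tested CpGs in percent (y axis) for each ferlin gene (x axis), with 1 point per mouse, blue for young and red for mid-aged, and black bars for the group mean and SD. The groups overlap in each gene, and the level falls from about 90.9% in mid-aged Fer1l5 to 55.3% in mid-aged Dysf.

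Position and sequence did not enter the choice of the genes. Of the 301 CpGs 111 lay in a CCGG site, 9.63% lay in sequence masked as repeats, beside 9.32% genome-wide, and the median number of CpGs within 100 bases on either side was 5, beside 9 genome-wide. The SD between mice at a CpG had a median of 5.29 percentage points in mid-aged and 6.86 in young mice, beside 2.56 and 3.51 over all tested CpGs, which hold more CpGs at low levels. A difference of 20 percentage points or more was seen at 5 of the 161 CpGs outside *Dysf* (3.11%), beside 0.984% of all tested CpGs, and 0 of the 5 were called. The 3 of them in *Otof* are neighbours in exon 14 that share a fragment and its reads, so they are not independent. In *Dysf* 8 CpGs differed by as much, 7 of them in the intron 32 run that chose the family. The genes whose means were closest to those of a ferlin over the 8 mice, among genes with a like number of tested CpGs, were *Pitpnc1* and *Sbk1* for *Dysf* (mean absolute difference 0.464 and 0.507 percentage points), *Rbp3* and *Pygm* for *Myof* (1.28 and 1.37), *Tnip1* and *Pik3r5* for *Otof* (1.10 for each), *Gm20444* and *Gm48512* for *Fer1l5* (0.935 and 0.995) and *Vps13b* and *Lmo3* for *Fer1l6* (0.454 and 0.598). This likeness is one of the level of the gene mean.

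The partners of the ferlins were examined through 3 lists. The list of membrane repair also holds *Fer1l4*, a further ferlin gene that is not among the genes examined above. Of 30 genes of membrane repair and dysferlin binding, such as annexins, caveolins and calpains, 29 had tested CpGs, and 1 of 1109 CpGs was called (0.0902%, beside 0.163% of all tested CpGs). It lies in *Pacsin2*, the gene of a protein that bends membranes (chromosome 15, 83464958), with 13.6, 14.4, 17.6 and 17.1% in mid-aged and 39.2, 35.6, 25 and 27.9% in young mice (-16.3 percentage points, adjusted p = 0.0212, quasi-binomial model with limma). This call was lost without any one of the mid-aged mice or without young mouse 2, where the list held 0 calls.

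Among 33 genes of other C2-domain calcium sensors, such as synaptotagmins, 31 had tested CpGs. Of their 1668 CpGs 0 were called in the quasi-binomial model, where 0.163% of all tested CpGs were, and 154 had an unadjusted p under 0.05 (9.09% of all tested CpGs did). Limma on M values gave 0 calls as well, but it called only 23 CpGs over the genome. Without young mouse 3 there were 2 calls in the quasi-binomial model. All 13 genes of otoferlin partners and hair cell exocytosis had tested CpGs, and 2 of 598 were called (0.334%), both lower in mid-aged mice, where 0.102% of all tested CpGs were called lower. A count this small does not set the list apart. They lie in *Cacna1d*, which encodes the calcium channel of the inner hair cell (chromosome 14, 30292969, 51.9% ± 13 against 86.4% ± 4.63, SD, n = 4 each), and in *Myo6*, which encodes an unconventional myosin (chromosome 9, 80209553, 31.0% ± 5.96 against 69.6% ± 9.77, SD, n = 4 each). The adjusted p was 0.0433 and 0.0482 in the quasi-binomial model with limma, the lowest coverage was 6 reads at each, and they were named after their values were seen. With 10 or more reads required in every mouse both drop out, and the 2 calls of the list are then other CpGs, both in *Stx1a*, the gene of a syntaxin of the exocytosis machinery (chromosome 5, 135037394 and 135037488). These differed by -26.4 and -35.5 percentage points, with an adjusted p of 0.0413 and 0.0495 at that minimum and of 0.0576 and 0.0611 with 5 reads (quasi-binomial model with limma). Without any one mid-aged mouse this list held 0 calls, and without young mouse 4 it held 1. No gene mean passed among the 25, 29 and 11 tested in the respective lists (limma, 0, 3 and 1 with an unadjusted p under 0.05).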

How the data were processed

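RRBS libraries of hepatocytes from 4 mid-aged and 4 young mice were used. The authors deposited, per strand and CpG (mm10), the methylation in percent and the read count behind it, not normalized further. By the submitters' processing notes, BWA 0.6.2, Trim Galore 0.4.2, Picard 1.115, SAMtools 1.3 and FastQC were used. The files were made by the DEEP project's pipeline and carry the label MCSv3. What this label stands for was not given in the sources used here. Percent times coverage gave whole methylated reads for all entries within 0.005 percentage points. Strands were summed, and autosomal, X and Y CpGs with 5 or more reads in every mouse were kept. For single CpGs a quasi-binomial logistic model was fitted, and age was tested by an F test whose dispersion was moderated by limma 3.58.1 (R 4.3.3) and not below 1. CpGs with a dispersion estimated as 0 were left out of the moderation. Means over genes (10 or more tested CpGs), promoters (1500 bases upstream to 500 downstream, 3 or more) and runs (3 or more, at most 200 bases between neighbours) were compared by limma with a trend. The runs were added after the data were seen. P-values were adjusted by Benjamini-Hochberg over all features. Both tests were tested on simulated data. For single CpGs with binomial noise, 2 of 67 simulated differences of 10 percentage points were recovered. For 20 points it was 17 of 67 and for 30 points 44 of 66, with 1 false call. A CpG without a call can thus still differ by such amounts. Exons were numbered along 1 GENCODE vM21 transcript per gene, and sequences come from the RefSeq copy of GRCm38.p6.

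The 5 genes, the lists and the tests were chosen with earlier results of these data known. In each gene the called CpGs, the CpG nearest to the start and the CpG with the largest difference over 10 or more reads in every mouse were named, with the 2 genes of the closest mean, and from the lists the largest changes at called CpGs with 10 or more reads in every mouse. Other CpGs in the text were picked after their values were seen. Other settings tried were 10 reads, limma on M values, other weights and windows, thinned reads, a replicate block and each mouse left out. Any pair of libraries had the same counts at 0.961% of CpGs or fewer, so none was a copy. The promoter values of 1 other marker list are not reported here.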

Additional observations from a re-analysis of the deposited data

Results flagged for a closer look

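In 3 of 48 sets of 4 mice 1 mouse lay far from the others of its age by Dixon's test, and chance alone gives this for about 1 in 20 sets of values without ties. Mid-aged mouse 4 had a mean over all tested CpGs of 44.3%, against 44.21 to 44.22% in the other mid-aged mice. At the CpG nearest to the start of *Fer1l6* mid-aged mouse 2 had 96.8% while the others had 100%, and at the start of *Dysf* young mouse 2 had 10.7% while the others had 0%. The latter CpGs rest on 6 to 52 and 8 to 35 reads per mouse. At both, the other mice of that age were tied, so Dixon's ratio is at its largest whatever the remaining value. That rate does not apply to them, and their flags do not set those mice apart.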

How the results depend on the processing

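The 6 called CpGs of the ferlin genes, all in *Dysf* intron 32, were also 6 with 10 or more reads in every mouse and with the replicate block, and 5 of them were left with thinned reads. Limma on M values and a moderation over all dispersions gave 0 calls, and over the genome these settings called 23 and 0 CpGs beside 1466. In these settings 29 and 32 ferlin CpGs had an unadjusted p under 0.05, with 13 in either setting outside *Dysf*. Leaving out 1 mouse gave 2 to 7 calls, and over the genome 614 to 2405. The other 4 genes held 0 calls in all of these settings. In the partner lists limma on M values gave 0 calls in the membrane repair list and 0 in the otoferlin list. Leaving out 1 mouse gave 0 to 1 calls in the membrane repair list, 0 to 2 in the list of other C2-domain sensors and 0 to 2 in the otoferlin list. With the replicate block the otoferlin list held 5 calls, and with 10 or more reads in every mouse 2 calls at other CpGs than with 5 reads.

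The deviations of mice with the same replicate number in the titles correlated by -0.00252 to 0.00805 over CpGs with 20 to 80% methylation, so no shared deviation was seen. This cannot show whether same-numbered mice were handled as pairs. The difference in the mean of all tested CpGs was 0.320 within replicate numbers as a block (exact permutation of signs, p = 0.125, the smallest that 4 pairs allow) and 0.233 to 0.384 without 1 mouse (exact permutation test, p = 0.0571 without any one mid-aged mouse). The gene mean of *Fer1l6* turned to -3.02 with summed reads and to -0.0527 on the M value scale, and that of *Dysf* turned to 1.38 without the intron 32 run, a setting chosen after seeing the data. At the start of *Otof* the CpG at 30461972 changed sign with thinned reads (-1.70) and ranged from -1.81 to 5.71 without 1 mouse, and the *Fer1l5* CpG at 36374635 ranged from -0.938 to 1.15. The causes were not tested. Of the gene means, promoter means and runs of the genes other than *Dysf* 0 passed in any of their settings. Depth limits single mice: on 13 reads the Wilson interval of mid-aged mouse 1 at *Dysf* 84135134 was 1.37 to 33.3%.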

Other observations

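The promoters of *Myof*, *Fer1l5* and *Fer1l6* had no CpG with 5 reads in every mouse, but reads below that minimum were present for some of them. In the *Myof* promoter 12 of 42 CpGs had any read, and of 199 reads over all mice 1.51% were methylated, with 0 to 3.57% in single mice over 5 to 45 reads. In the *Fer1l5* promoter 5 of 22 CpGs had reads in 7 mice, and of 429 reads 50.3% were methylated. Young mice 1 to 4 had 55, 50.7, 49.7 and 66.7% there over 60, 71, 179 and 30 reads, and mid-aged mice 2 and 3 had 44.4 and 42.9% over 18 and 70 reads, while mid-aged mouse 1 had 1 read and mid-aged mouse 4 had 0. In the *Fer1l6* promoter 0 of 17 CpGs had a read. The ferlin starts with reads thus lay at low levels in *Dysf* and *Myof* and at intermediate levels in *Otof* and *Fer1l5*, as values of different CpGs in different numbers of mice.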
